A study of Mus musculus with 54 samples.

Results

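The replication module measured here holds 39 genes whose products prepare and carry out the copying of chromosomal DNA: the licensing factors, the replicative helicase and its activators, the polymerases and primase, the sliding clamp with its loader and lagging-strand partners, the enzymes of nucleotide supply, the factors that rebuild chromatin behind the fork, and the regulators of the step from G1 into S phase. They were chosen by gene symbol, for known roles in replication, with earlier results of these data known. All 39 were found among the 16632 genes of the deposited count table, and all 39 were among the 13169 genes that passed the filter on low counts. Primary microglia, immune cells that live in the brain, had been grown from neonatal C57BL/6 mice in medium with supernatant of L929 fibroblasts, with the brains of a pair of animals pooled per flask, and were shaken off the astrocyte layer on which they matured. The series follows the transfer of alpha-synuclein (aSyn), a neuronal protein that aggregates in Parkinson's disease, from microglia that carry it to microglia that do not. RNA was read as 3′ tags, so a gene's value counts tags near the end of its transcripts and says nothing of its length.

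Microglia of the untreated group (6 libraries) received neither protein nor, as far as the labels say, dye. Cells of the aSyn group (4 libraries) received 1 µM Atto-488-labelled aSyn for 14 h. Donor cells (22 libraries) had the same aSyn load, acceptor cells (22 libraries) received a violet dye and no aSyn, and both were mixed, kept together for 15, 30, 60, 150 or 300 min and separated again by cell sorting. A 0 min group of each kind also exists, and the labels do not say how its cells were handled. They also do not say whether untreated and aSyn cells went through the sorter, and they give different seeding formats for donors and acceptors. Replicate numbers 1 to 4 in the titles are called experiments here: experiment 1 is labelled passage 3, experiment 2 passage 1, and experiments 3 and 4 passage 2. Experiments 2 and 4 hold 2 untreated libraries each, which were summed to 1 unit, so each comparison rests on 3 or 4 units a group. Experiment 4 is absent from both 0 min groups, experiment 2 from the donors at 60 min and experiment 3 from the acceptors at 300 min.

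Chromosomal replication is licensed in G1, when the origin recognition complex, Cdc6 and Cdt1 load the ring-shaped Mcm2-7 helicase onto DNA. In S phase Cdc45, the GINS complex and Mcm10 turn the loaded ring into a moving helicase, primase and polymerase alpha start each strand, and polymerases delta and epsilon extend them with the clamp PCNA. Many of these genes are transcribed late in G1 under E2F transcription factors, and non-dividing cells express most of them weakly. Microglia in the adult brain divide rarely, whereas microglia cultured with colony-stimulating factor, which L929 cells secrete, can proliferate.

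E2F factors bind variants of a short element, and 4 forms of it were searched on both strands of the RefSeq promoter windows of build GRCm38.p6 (250 bases before to 50 after the first listed start): TTTGGCGC, TTTCCCGC, TTTCGCGC and TTTGCCGC. Windows were found for 34 of the 39 members, and not for Mcm4, Gins1, Gins2, Pole and Ccne2. At least 1 form stood in 12 of 34 member windows (35.3%), against 2.32% of all 27025 promoter windows and 4.17% of the 10420 windows of tested genes. Licensing genes held 7 of these 12 (Mcm3, Mcm5, Mcm6, Mcm7, Orc1, Cdc6 and Cdt1, of 8 with a window), and the others were Pola1, Pold1, Rfc3, Hells and Cdca7. The 4 stretches printed here are shown because their matches lie wholly before the start of transcription in both RefSeq and GENCODE vM21. They run 5′ to 3′ on the strand of the gene, with the matched letters in capitals.
Mcm5 promoter: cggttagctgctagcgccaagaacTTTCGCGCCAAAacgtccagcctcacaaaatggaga
Mcm6 promoter: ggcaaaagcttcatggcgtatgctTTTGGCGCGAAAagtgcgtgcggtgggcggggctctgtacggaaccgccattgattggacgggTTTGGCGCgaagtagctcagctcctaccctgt
Pola1 promoter: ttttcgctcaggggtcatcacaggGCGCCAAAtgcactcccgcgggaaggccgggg
Cdca7 promoter: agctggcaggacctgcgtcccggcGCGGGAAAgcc
The Mcm5 stretch is chr8:75109332-75109391 on the plus strand, and its 12 capitals are 2 overlapping matches, TTTCGCGC on the plus strand and TTTGGCGC on the minus strand. The Mcm6 stretch is chr1:128359721-128359839 on the minus strand and holds 3 matches, the first 2 of them overlapping. Pola1 (chrX:93632262-93632317, minus strand) and Cdca7 (chr2:72476124-72476158, plus strand) hold 1 match each. The window of Mcm2 held no match to these letters. A pair of elements known from mitotic genes were searched for contrast: TTTGAA stood in 3 of 34 member windows (8.82%) and in 13 of 19 windows of a list of mitosis genes (68.4%, all promoters 18.1%), and CCAAT in 52.9% and 89.5% (all promoters 37.9%).

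Library totals ran from 7807389 to 15537493 counts (median 13036175.5), so the 3 counts taken as the limit of detection correspond to 0.193 to 0.384 CPM (counts scaled to a common library size, with TMM factors). Units of one experiment deviated from their group means together, with a pair correlation of at least 0.199 in all 19 pairwise comparisons. Each difference was therefore fitted without and with the experiment as a replicate block, by edgeR's quasi-likelihood test over all 14 groups with Benjamini-Hochberg adjustment over 13169 genes, and a gene was called at an adjusted p below 0.05. The biological coefficient of variation was 38.1% without the block and 21.0% with it. Summed CPM of 8 microglia markers (Cx3cr1, P2ry12, Tmem119, Csf1r, Aif1, Itgam, C1qa and Trem2) ran from 1752 to 7519 over the units, and none of the 8 was at 0 in any untreated or aSyn unit. In bulk samples fewer cycling cells and less RNA per cell cannot be told apart. Nothing in the labels says that the libraries of one group came from separate animals. The p-values set group differences against the spread between these units, which may not be that between animals. The fit without the block treats units of one experiment as independent, although they deviated together.

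The first question is how the module differed between cells loaded with aSyn for 14 h and untreated cells. The aSyn carried the Atto-488 label, so protein and label cannot be told apart here. All 39 members had a lower mean in the aSyn group than in the untreated group in both fits, with a median log2 fold change of -0.94 (block -0.97), against -0.04 (block -0.05) over all 13169 genes. Without the block 7 of 39 members (17.9%) fell: Mcm2, Mcm3, Mcm4, Pcna, Hells, Cdca7 and Ccne2. Over all genes 0.896% fell in that fit. With the replicate block 28 of 39 (71.8%) fell, against 10.2% of all genes, and no member rose in either fit. The values of the aSyn units lay wholly below those of the untreated units for 4 members (Mcm3, Mcm6, Pcna and Cdca7), against 3.6% of all genes. An unadjusted p below 0.05 was reached by 23 members without the block (17.1% of all genes in either direction) and by 32 with it (32.5% of all genes). The members were chosen with earlier results of these data known, so these shares describe the list and are no independent support for a change.

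**Figure D1:**
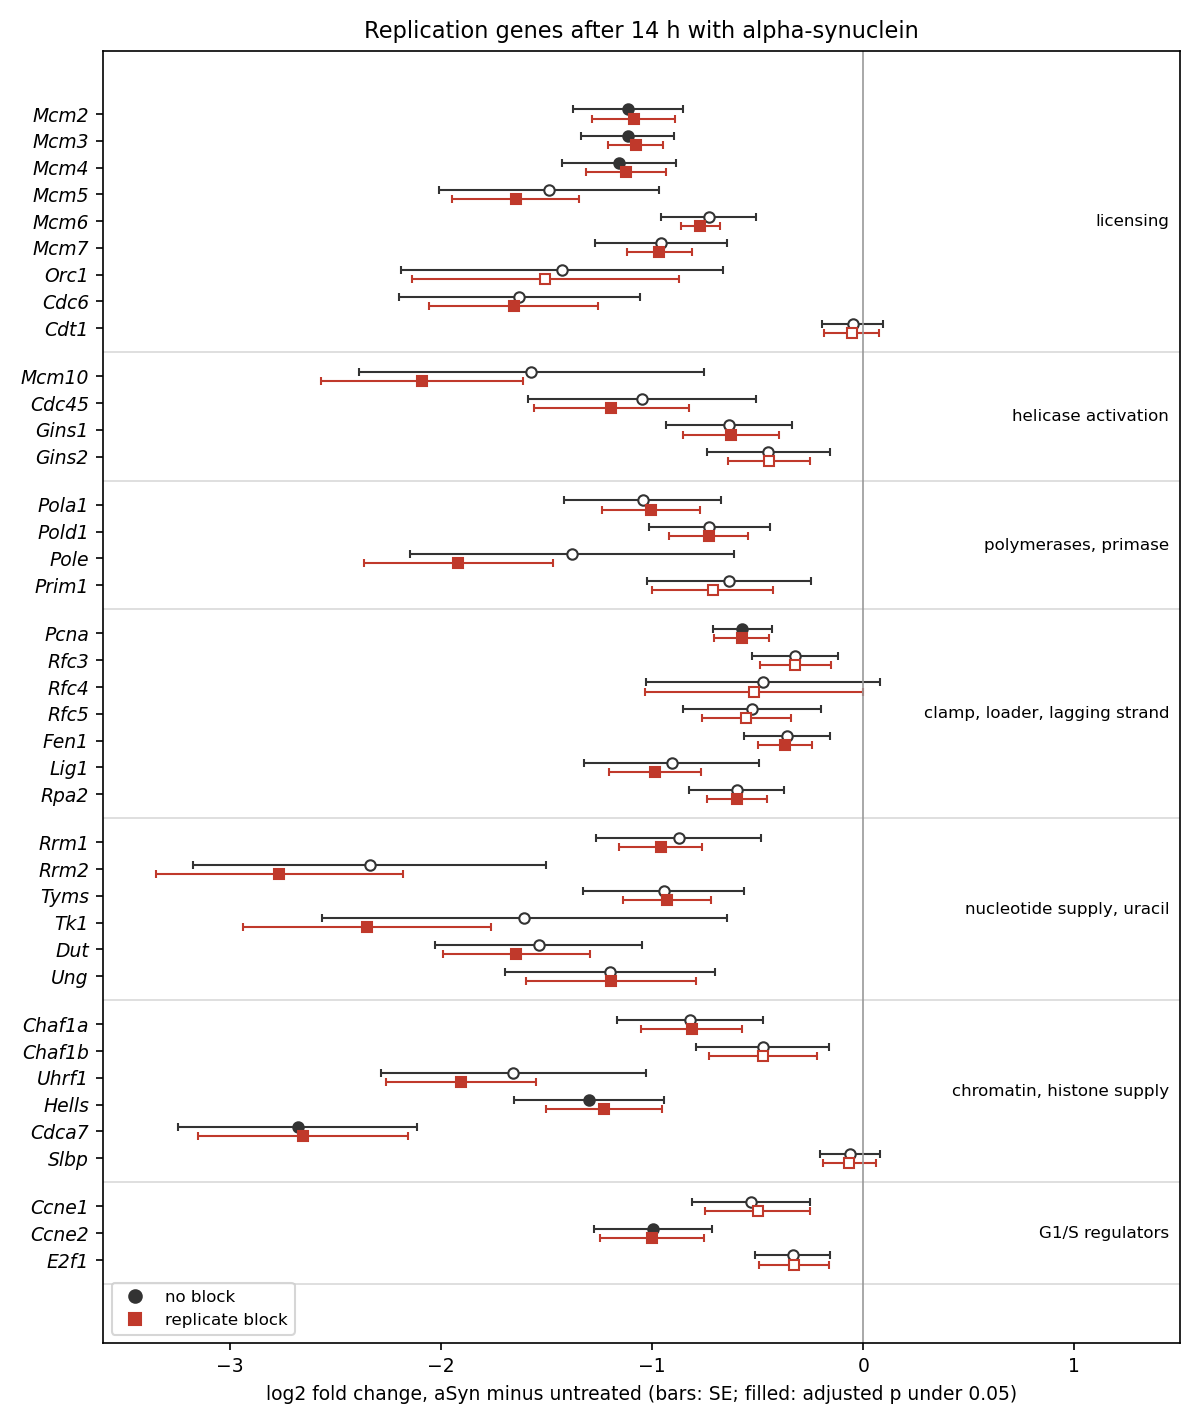
Log2 fold change of each of the 39 members between the aSyn and the untreated group (x axis, bars show the SE), by role, in the fit without the block (circles) and with the replicate block (squares). Filled symbols mark an adjusted p below 0.05: 7 circles and 28 squares are filled, and every symbol lies left of 0.

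Licensing genes had the most calls without the block, 3 of 9 (7 of 9 with it), and a median log2 fold change of -1.12. Mcm2 to Mcm7 encode the 6 subunits of the helicase ring. Mcm3 (chr1:20802968-20820312 in mm10, minus strand) stood at 91.8, 37.2, 66.1 and 76.2 CPM in the untreated units of experiments 1 to 4 and 36.2, 27.3, 30.1 and 31.3 CPM in the aSyn units. Each aSyn unit was below every untreated unit, the log2 fold change was -1.12 (SE 0.22, adjusted p = 0.00231), and the blocked value was -1.08 (SE 0.13, adjusted p = 1.44e-07). Mcm2 (chr6:88883474-88898780, minus strand) went from 27.4, 9.55, 24.2 and 23.9 CPM untreated to 9.95, 6.11, 11.9 and 11.2 CPM with aSyn, a log2 fold change of -1.12 (SE 0.26, adjusted p = 0.0103). Mcm4 (chr16:15623897-15637400, minus strand) went from 36.8, 15.3, 27.7 and 28.99 CPM untreated to 16.4, 12.3, 9.06 and 10.9 CPM with aSyn, a log2 fold change of -1.16 (SE 0.27, adjusted p = 0.0109). In both genes the untreated unit of experiment 2 lay among the aSyn units and the other untreated units lay above them. Mcm6 (chr1:128331590-128359664, minus strand), whose promoter stretch with 3 matches is printed above, went from 119, 82.1, 91.96 and 82.6 CPM untreated to 80.02, 48.8, 62.02 and 35.1 CPM with aSyn. Its groups did not overlap, yet it missed the threshold without the block, at -0.73 (SE 0.23, adjusted p = 0.0704), and had the smallest p of the module with it, at -0.77 (SE 0.09, adjusted p = 1.23e-07). The widest drop among the ring subunits was that of Mcm5, which fell with the block only, at -1.65 (SE 0.30, adjusted p = 0.000149), and Mcm7 likewise fell with the block, at -0.97 (SE 0.15, adjusted p = 2.34e-05). Mcm7 overlaps Ap4m1 and Cops6 on the opposite strand.

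Among the loaders, Cdc6, an ATPase that helps load the ring, fell with the block, at -1.66 (SE 0.40, adjusted p = 0.00297). Orc1, the largest subunit of the origin recognition complex, did not pass in either fit, and its counts were near the limit of detection in the aSyn units, at 0.958, 0.497, 0.0795 and 0.786 CPM. Cdt1, which delivers the ring to the origin, had the smallest log2 difference of the members. It measured 72.3, 82.5, 83.2 and 69.1 CPM in the untreated units of experiments 1 to 4 and 76.3, 86.8, 73.5 and 60.1 CPM in the aSyn units. Its groups overlapped, and its log2 fold change was -0.05 (SE 0.14, adjusted p = 0.902). Cdt1 is held in check in S phase largely by destruction of the protein. Its window holds the form TTTGGCGC after the listed start, as does that of Mcm3. In the windows of Mcm5, Mcm6 and Pola1 this form lies before the start.

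Helicase activation had 0 of 4 calls without the block and 3 of 4 with it. Mcm10, which joins the active helicase, measured 19.3, 12.5, 9.43 and 13.7 CPM in the untreated units of experiments 1 to 4 and 12.01, 3.48, 2.15 and 0.698 CPM in the aSyn units. Cdc45, which with GINS and the Mcm2-7 ring forms the active helicase, measured 9.18, 1.53, 4.54 and 5.88 CPM in the untreated units of experiments 1 to 4 and 5.75, 2.35, 0.636 and 1.40 CPM in the aSyn units. Mcm10 was lower with aSyn in each experiment, while Cdc45 was higher in experiment 2 (paired log2 difference 0.57) and lower in the other experiments. The blocked log2 fold changes were -2.09 (SE 0.48, adjusted p = 0.00174) for Mcm10 and -1.19 (SE 0.37, adjusted p = 0.0186) for Cdc45. Of the GINS subunits, Gins1 fell with the block, at -0.63 (SE 0.23, adjusted p = 0.0475), and Gins2 did not pass, at -0.45 (SE 0.19, adjusted p = 0.103). Cdc45 and Gins2 overlap genes on the opposite strand that the table also lists (Ufd1 and Gse1), and use of strand in the counting is not given in the sources used here.

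Polymerase and primase genes had 0 of 4 calls without the block and 3 of 4 with it. Pola1, the catalytic subunit of polymerase alpha, measured 11, 7.41, 11.7 and 21.9 CPM in the untreated units of experiments 1 to 4 and 9.51, 4.90, 4.85 and 5.94 CPM in the aSyn units. Pole, the catalytic subunit of polymerase epsilon, measured 9.99, 2.40, 5.23 and 7.28 CPM in the untreated units of experiments 1 to 4 and 5.82, 1.85, 1.35 and 0.436 CPM in the aSyn units. The aSyn unit was the lower of the pair in each experiment for both genes, by the most in experiment 4. With the block the log2 fold change was -1.005 (SE 0.23, adjusted p = 0.00201) for Pola1 and -1.92 (SE 0.45, adjusted p = 0.00216) for Pole. Pold1, the catalytic subunit of polymerase delta, went from 22.8, 10.6, 14.1 and 13.7 CPM untreated to 11.3, 10.1, 7.63 and 7.77 CPM with aSyn and fell with the block, at -0.73 (SE 0.19, adjusted p = 0.00495). Prim1, the small primase subunit, was lower in each experiment and did not pass, at -0.71 (SE 0.29, adjusted p = 0.0731).

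Of the clamp, loader and lagging-strand genes, 1 of 7 fell without the block and 4 of 7 with it. Pcna, the sliding clamp (chr2:132249162-132253314, minus strand), measured 407, 315, 421 and 319.7 CPM in the untreated units of experiments 1 to 4 and 233.1, 261.5, 298 and 191 CPM in the aSyn units. All aSyn units lay below all untreated units, and the log2 fold change was -0.57 (SE 0.14, adjusted p = 0.0175), with paired differences of -0.80, -0.27, -0.50 and -0.74 in experiments 1 to 4. Pcna has 2 annotated processed copies (Pcna-ps1 and Pcna-ps2), to which some of its reads could be assigned. Lig1, the ligase that joins Okazaki fragments, measured 91.1, 30.4, 59.8 and 93.3 CPM in the untreated units of experiments 1 to 4 and 65.1, 28.1, 27.8 and 25.2 CPM in the aSyn units. Its aSyn unit of experiment 1 stood among the untreated units, and it fell with the block only, at -0.99 (SE 0.22, adjusted p = 0.00132). Rpa2, a subunit of the single-strand binding protein, went from 47.4, 24.6, 39.1 and 36.4 CPM untreated to 32.6, 18.9, 21.7 and 23.9 CPM with aSyn, and Fen1, the flap nuclease, went from 41.7, 29.4, 28.4 and 26.3 CPM untreated to 26.4, 25.9, 29.1 and 16.3 CPM with aSyn. Both fell with the block, at -0.60 (SE 0.14, adjusted p = 0.00257) and -0.37 (SE 0.13, adjusted p = 0.0383). The clamp loader subunits Rfc3, Rfc4 and Rfc5 did not pass in either fit, with blocked log2 fold changes of -0.32, -0.52 and -0.55. Rfc4, Rfc5, Fen1 and Lig1 overlap opposite-strand genes of the table (Eif4a2, Wsb2, Tmem258 and Zswim9).

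The nucleotide supply genes had the largest median drop of the roles, -1.37, with 0 of 6 calls without the block and 6 of 6 with it. Rrm1, the large subunit of ribonucleotide reductase, measured 45.8, 18.9, 36.3 and 38.6 CPM in the untreated units of experiments 1 to 4 and 34.6, 11.3, 15.98 and 14.1 CPM in the aSyn units. Dut, which clears dUTP, measured 19.4, 5.67, 17.1 and 17.1 CPM in the untreated units of experiments 1 to 4 and 8.84, 4.26, 5.01 and 2.18 CPM in the aSyn units. Rrm1 and Dut were lower with aSyn in each experiment, with blocked log2 fold changes of -0.96 (SE 0.20, adjusted p = 0.000537) and -1.64 (SE 0.35, adjusted p = 0.000741). Rrm2, the small reductase subunit, whose level follows S phase, went from 27.1, 4.54, 28.2 and 36.3 CPM untreated to 13.3, 1.99, 2.94 and 0.611 CPM with aSyn. Tk1, the thymidine kinase of S phase, went from 28.4, 5.76, 22.7 and 21.3 CPM untreated to 19.5, 3.13, 2.62 and 0.175 CPM with aSyn. The 2 genes spread widely between experiments: the paired log2 differences of Rrm2 were -1.02, -1.13, -3.20 and -5.58 in experiments 1 to 4. Tk1 had 2 counts in the aSyn unit of experiment 4, below the 3 taken as the limit of detection. The blocked values were -2.77 (SE 0.58, adjusted p = 0.000772) and -2.35 (SE 0.59, adjusted p = 0.00384), and without the block neither passed, with SEs of 0.84 and 0.96. Tyms, thymidylate synthase, and Ung, a uracil glycosylase, fell with the block at -0.93 (SE 0.21, adjusted p = 0.0015) and -1.19 (SE 0.40, adjusted p = 0.0323). Tk1 overlaps Afmid on the opposite strand, and Tyms has 1 annotated processed copy.

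Chromatin and histone supply had 2 of 6 calls without the block and 4 of 6 with it. Cdca7 (chr2:72476159-72486893, plus strand), the partner that activates the remodeller Hells, measured 9.18, 2.31, 4.97 and 5.54 CPM in the untreated units of experiments 1 to 4 and 0.663, 1.14, 0.716 and 0.873 CPM in the aSyn units. It had the largest drop of the module without the block, -2.68 (SE 0.57, adjusted p = 0.00442), and its groups did not overlap. Its aSyn units rest on 9 to 16 counts each. Hells (chr19:38930915-38971051, plus strand) measured 12.7, 3.44, 9.17 and 13.5 CPM in the untreated units of experiments 1 to 4 and 4.79, 2.77, 3.82 and 4.36 CPM in the aSyn units and fell by 1.30 (SE 0.36, adjusted p = 0.0364) on the log2 scale. Uhrf1, which brings the maintenance DNA methyltransferase to newly copied DNA, went from 28.7, 6.63, 17.1 and 19.2 CPM untreated to 13.6, 3.77, 2.62 and 2.53 CPM with aSyn. Its aSyn unit of experiment 1 was far above the other 3, and it fell with the block only, at -1.91 (SE 0.35, adjusted p = 0.000177). Chaf1a, the large subunit of the histone chaperone CAF-1, fell with the block, at -0.81 (SE 0.24, adjusted p = 0.0142), and it overlaps Ubxn6 on the opposite strand. Chaf1b, another CAF-1 subunit, did not pass, at -0.48 (SE 0.26, adjusted p = 0.194). Slbp, which binds the stem-loop of histone mRNAs, measured 41.3, 33.01, 28.4 and 31.7 CPM in the untreated units of experiments 1 to 4 and 29.5, 34.9, 29.2 and 35.00 CPM in the aSyn units. The groups of Slbp overlapped, at -0.06 (SE 0.14, adjusted p = 0.87).

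Of the G1/S regulators, Ccne2 (cyclin E2, chr4:11191351-11204779, plus strand) measured 18.8, 8.55, 12.2 and 16.8 CPM in the untreated units of experiments 1 to 4 and 10.7, 5.19, 5.49 and 6.81 CPM in the aSyn units and fell in both fits, at -0.995 (SE 0.28, adjusted p = 0.0412) without the block. It overlaps Ints8 on the opposite strand. Ccne1 (cyclin E1) went from 9.39, 3.71, 10.3 and 7.58 CPM untreated to 5.60, 3.98, 5.96 and 5.76 CPM with aSyn and E2f1, an activator E2F, from 37.04, 23.8, 30.3 and 29.1 CPM untreated to 21.8, 21.6, 20.8 and 30.99 CPM with aSyn. Neither passed, at -0.53 (SE 0.28, adjusted p = 0.323) and -0.33 (SE 0.18, adjusted p = 0.329). In each, 1 experiment was higher with aSyn and 3 were lower.

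Within experiments, 29 of the 39 members were lower with aSyn in all 4. The median paired log2 difference was -0.72, -0.31, -1.10 and -1.29 in experiments 1 to 4, with 37, 31, 37 and 37 of 39 members lower, and the median over all genes was between -0.07 and 0.00. Experiment 2 gave the smallest difference for 28 members, and its untreated unit held the lowest replication signal of the untreated units. Experiment 4 gave the largest drop for 23 members. The ribosomal RNA gene Rn45s made up 7.69, 5.07, 5.26 and 21.1% of the counts in the untreated units of experiments 1 to 4. In the aSyn units it made up 9.24, 7.73, 4.78 and 17.7%. Library numbers in the titles adjoin in experiments 1 to 3 and lie apart in experiment 4. The part of these differences in the drop of experiment 4 was not tested. Without the block 0 members passed when experiment 3 was left out, 3 when experiment 4 was, 0 with experiments 1 and 2 alone, and 0 when only these groups were fitted. With the block 21 to 27 passed when 1 experiment was left out, and 8 with experiments 1 and 2 alone (Mcm2 to Mcm6, Mcm10, Pcna and Cdca7). Shares of all genes called in these fits with fewer units are not given here. The counts therefore do not separate a change in the members from a change in the whole fit.

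Markers of astrocytes, the oligodendrocyte lineage and neurons also had lower values in the aSyn group. The summed CPM of 9 astrocyte markers was 11.7, 20.2, 89.99 and 155.7 in the untreated units of experiments 1 to 4 and 15.0, 11.2, 18.8 and 38.0 in the aSyn units. All 9 were lower with aSyn by log2 fold change, 0 passed without the block and 5 with it, and Aqp4, Slc1a2 and Gja1 were at 0 in at least 1 untreated unit. For 8 oligodendrocyte lineage markers the sums were 200.6, 117.5, 588.8 and 215.0 CPM untreated and 159.1, 117.6, 248.3 and 80.5 CPM with aSyn (0 passed without the block, 4 with it). Neuron markers (5) summed to 3.13, 3.75, 22.9 and 30.0 CPM untreated and to 3.09, 1.35, 3.34 and 2.88 CPM with aSyn (1 passed with the block). Fibroblast and mural markers (5) summed to at most 17.4 CPM untreated and 10.6 CPM with aSyn, and none passed. Of 3 endothelial markers in the table, 1 rose, Pecam1, in both fits. The part of these markers in the difference of the replication genes was not tested. Microglia markers held 1 call lower and 1 higher with the block (Cx3cr1 lower, Tmem119 higher) and 0 without it, and the sum of experiment 4 was 3301 CPM untreated and 2004 CPM with aSyn.

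Other genes of replication and of the cell cycle were counted from lists. Of 51 further replication genes 50 were tested, with a median log2 fold change of -0.34, and 4 fell without the block: Rpa1, the large single-strand binding subunit, at -0.62 (SE 0.13, adjusted p = 0.00498), Tipin, a fork protection factor, at -0.94 (SE 0.20, adjusted p = 0.00443), Wdhd1, which ties polymerase alpha to the helicase, at -1.19 (SE 0.30, adjusted p = 0.0208), and Dnmt1, the maintenance DNA methyltransferase, at -0.78 (SE 0.19, adjusted p = 0.0177). With the block 18 fell and 1 rose (Pold4). Of 24 further G1/S controllers, 1 fell without the block and 13 with it. The first was Ccnd1, cyclin D1, which averaged 378 CPM (SD 154, n = 4) untreated and 60.1 CPM (SD 32.2, n = 4) with aSyn, a log2 fold change of -2.65 (SE 0.61, adjusted p = 0.00899). Cdkn1a, the Cdk inhibitor p21, was the 1 controller that rose, with the block only, at 0.58 (adjusted p = 0.0051). The Cdk inhibitors Cdkn2c and Cdkn2d fell with the block, at -1.39 (adjusted p = 0.000477) and -0.46 (adjusted p = 0.0251). Cdkn1b, Cdkn1c and Cdkn2a did not pass in either fit. Of 22 mitosis genes 0 passed without the block and 20 fell with it, with a median of -1.28 (block -1.68). Their summed CPM was 728.6, 266.6, 444.1 and 589.9 untreated and 478.3, 147.3, 151.9 and 113.0 with aSyn. No test compared these lists with the 39 members.

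**Figure D2:**
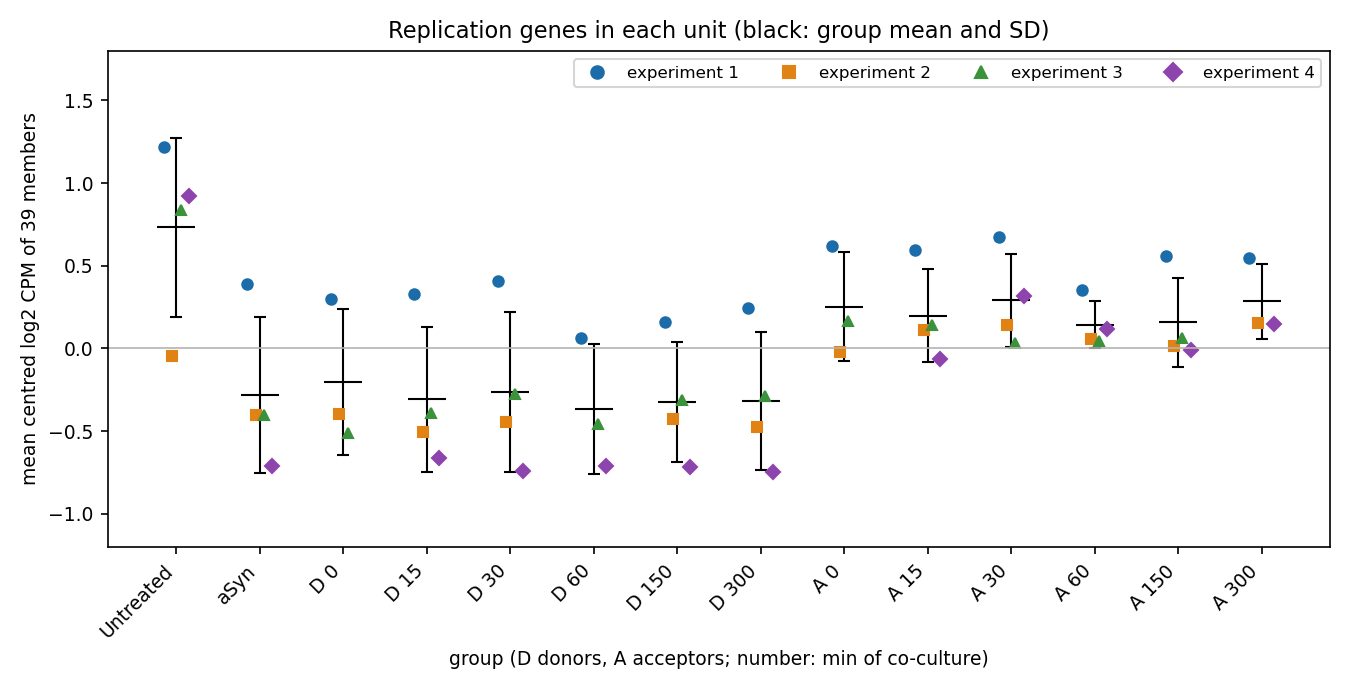
Mean over the 39 members of log2 CPM centred on each gene's own mean (y axis) for each unit, by group (x axis), coloured by experiment, with group mean and SD in black. The untreated units of experiments 1, 3 and 4 are the highest, at 0.83 to 1.22, donors and aSyn units of experiment 4 are the lowest, and experiment 1 lies on top in every group.

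Acceptor cells took no aSyn before mixing and were set against the same untreated units, so their comparison shares its controls with the one above. Without the block 0 members passed at any time, while 36 to 38 of 39 had a lower mean. The shares of all genes that fell in that fit were 0%, 0%, 0.0304%, 0.0152%, 0.0607% and 0% at 0, 15, 30, 60, 150 and 300 min, and 5, 7, 6, 12, 9 and 6 members reached an unadjusted p below 0.05 by edgeR, against 5.69%, 6.37%, 7.34%, 7.62%, 8.22% and 5.47% of all genes in either direction. With the replicate block 4, 7, 5, 8, 7 and 5 members fell, against 0.607%, 1.18%, 2.04%, 2.07%, 2.47% and 0.311% of all genes, and none rose. Median log2 fold changes of the members without the block were -0.47, -0.57, -0.39, -0.62, -0.58 and -0.48. DESeq2 called 0, 1 (Mcm2), 0, 1 (Cdca7), 1 (Mcm2) and 0 members.

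In all, 10 members fell with the block at 1 or more times, and licensing genes led them. Mcm3 and Mcm6 fell at all 6 times, Mcm2 at the 5 times from 15 min on, and Mcm7 at 0, 60, 150 and 300 min. Over the 22 acceptor units the lowest, median and highest values were 30.7, 40.1 and 53.5 CPM for Mcm3 and 57.02, 70.2 and 97.5 CPM for Mcm6. At 150 min Mcm3 measured 51.5, 35.95, 32.5 and 45.7 CPM in experiments 1 to 4, against 91.8, 37.2, 66.1 and 76.2 CPM untreated. It was the lower of the pair in each experiment, by little in experiment 2, with a blocked log2 fold change of -0.69 (SE 0.13, adjusted p = 0.000959). Mcm2 at 15 min measured 11.4, 7.61, 11.5 and 8.19 CPM against 27.4, 9.55, 24.2 and 23.9 CPM untreated, at -1.09 (SE 0.20, adjusted p = 0.00144). Mcm6 at 0 min measured 87.7, 59.7 and 63.4 CPM in experiments 1 to 3, lower than the untreated unit in each, at -0.53 (SE 0.10, adjusted p = 0.00761).

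Cdca7 fell at the 5 times from 0 to 150 min, with its widest difference at 0 min, -2.48 (SE 0.55, adjusted p = 0.0214), where the units stood at 2.05, 0.483 and 0.887 CPM. At 300 min its acceptor units measured 3.63, 3.50 and 1.25 CPM and it did not pass, at -1.08 (SE 0.51, adjusted p = 0.345). Uhrf1 fell at 15, 60 and 150 min, and at 150 min measured 10.3, 5.31, 5.64 and 4.98 CPM, at -1.46 (SE 0.35, adjusted p = 0.00961). Rrm1 fell at the 4 times from 15 to 150 min, Mcm4 at 15 min, Pold1 at 60 min and Pcna at 300 min. Rrm2, which had one of the widest drops with aSyn, did not pass at any time in acceptors: its 22 acceptor units had a lowest, median and highest value of 6.49, 11.8 and 23.1 CPM, against 0.172, 2.80 and 13.9 CPM in the 22 donor units. The lowest donor unit rests on 2 counts.

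The acceptor difference was not the same in each experiment. In experiments 1, 3 and 4 the median paired log2 difference of the members lay between -0.91 and -0.44 at every time measured, and in experiment 2 between 0.01 and 0.23. With the block, calls at the 6 times numbered 0, 2, 0, 0, 3 and 0 without experiment 1, 2, 8, 3, 12, 7 and 3 without experiment 2, 0, 1, 0, 2, 3 and 0 without experiment 3 and 4, 2, 6, 5, 3 and 0 without experiment 4. Mcm2 was among those called at 15 and 150 min whichever experiment was left out. Shares of all genes called with an experiment left out are not given here, so these counts may also follow changes in the whole fit. Summed astrocyte markers were 8.02 to 49.6 CPM over the acceptor units, below the untreated units of experiments 3 and 4, and their part in this comparison was not tested. Acceptors were also dyed, mixed with donors and sorted, and these steps cannot be told apart here.

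**Figure D3:**
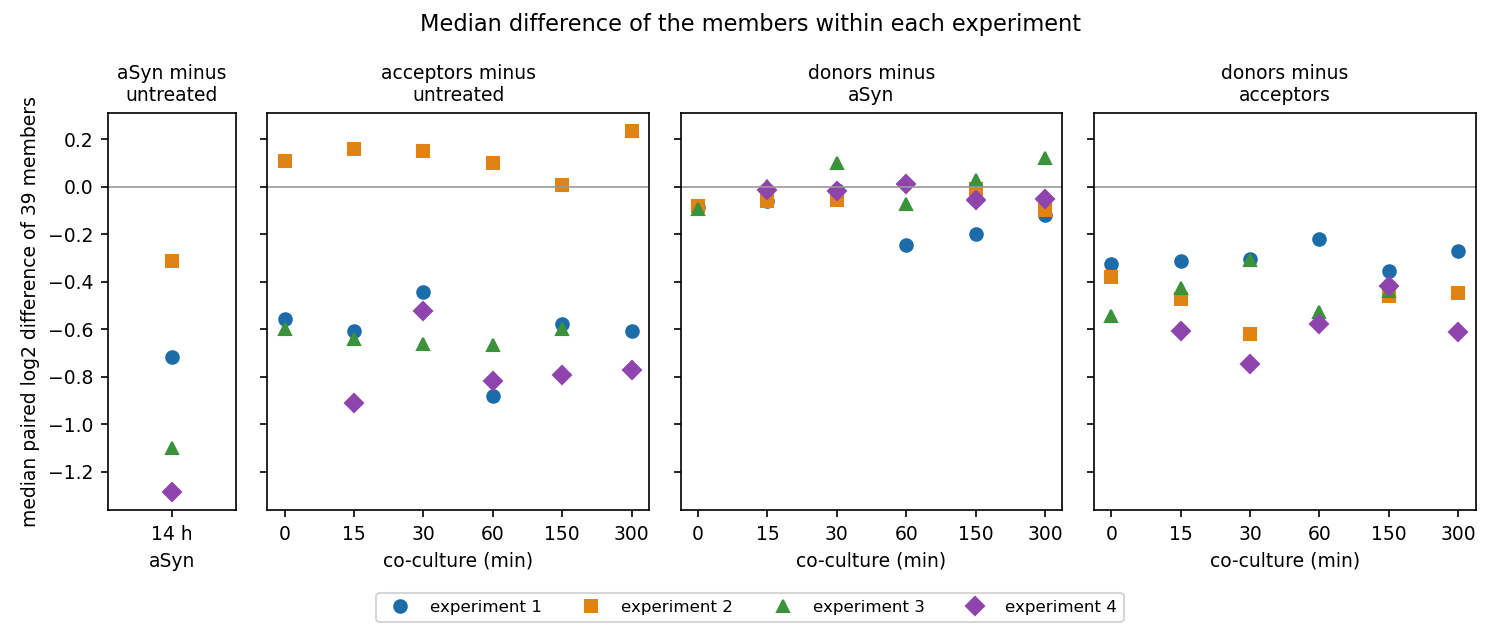
Median over the 39 members of the log2 difference within each experiment (y axis), for aSyn against untreated and, by minutes of co-culture (x axis), for acceptors against untreated, donors against aSyn cells and donors against acceptors. Experiment 2 lies above 0 for acceptors against untreated, and all points lie below 0 for donors against acceptors.

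Donor cells in co-culture were set against the aSyn group to ask whether mixing changed the module. No member passed at any time in either fit. The share of all genes called was 0% without the block and 0% with it at 0, 15, 30, 60 and 150 min, and 0.0304% and 0.304% at 300 min. By edgeR 0, 0, 0, 0, 1 and 1 members had an unadjusted p below 0.05 without the block, and 0, 0, 0, 1, 1 and 3 with it. Over all genes these shares were 0.904% to 2.78% without the block and 3.08% to 8.6% with it. Without the block the members' median log2 difference was 0.02, -0.04, 0.00, -0.13, -0.09 and -0.06. The donors at 0 min lack experiment 4, and within experiments 1 to 3 their medians were all below 0, at -0.09, -0.08 and -0.09. Mcm3 in donors at 300 min measured 44.4, 25.1, 30.7 and 38.8 CPM against 36.2, 27.3, 30.1 and 31.3 CPM in aSyn cells, a blocked log2 difference of 0.13 (SE 0.13, adjusted p = 0.873). Cdt1 came nearest to a call, at 300 min, with 49.6, 51.1, 50.6 and 56.01 CPM in donors and 76.3, 86.8, 73.5 and 60.1 CPM in aSyn cells. Donors were the lower of the pair in 4 of 4 experiments, at -0.51 (SE 0.13, adjusted p = 0.0955). Acceptors at 300 min were also low in Cdt1, at 59.8, 55.96 and 58.4 CPM in experiments 1, 2 and 4. The untreated units of these experiments held 72.3, 82.5 and 69.1 CPM. Without experiment 4, Cdt1 passed at 300 min in the blocked fit of donors against aSyn cells. These misses do not show that the groups were alike: the median SE of a member's difference here was 0.35 without the block and 0.24 with it.

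A test over the 6 times asked the same within donors and within acceptors. Of the members 0 passed in donors without the block (all genes 0.0607%) and 0 with it (all genes 0.577%), and 0 passed in acceptors in either fit (all genes 0.00759% and 0.137%). The unadjusted p was below 0.05 for 1 member in donors without the block and 3 with it, and for 0 and 2 in acceptors. The change from 0 to 300 min did not differ between donors and acceptors for any member at the threshold in either fit (all genes 0% and 0%), with 0 and 2 unadjusted. Over all genes the unadjusted shares were 1.88%, 1.86% and 2.45% for donors, acceptors and their difference without the block, and 7.72%, 6.64% and 6.77% with it.

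Donors and acceptors of the same time were then compared. From 15 min on they had shared a dish. Donors had the lower mean for 34 to 37 of 39 members, and the median paired difference was below 0 in all 21 pairs of one experiment and time, from -0.75 to -0.22. Without the block 0 members passed at any time, while 0.0607%, 0.205%, 0.251%, 0.0835%, 0.038% and 0% of all genes fell at 0, 15, 30, 60, 150 and 300 min. By edgeR 3, 5, 6, 5, 5 and 6 of the 39 members had an unadjusted p below 0.05 there. Over all genes, in either direction, the shares were 7.48%, 11.5%, 11.4%, 9.85%, 8.42% and 6.11%. At 0 and 15 min the share of members was close to that of all genes. With the replicate block 3, 8, 10, 5, 6 and 1 members were lower in donors, against 1.6%, 4.57%, 5.25%, 3.08%, 2.24% and 0.425% of all genes, and none was higher. Donors and acceptors differ in aSyn, in dye and in seeding, which cannot be told apart. Summed markers ran from 8.99 to 39.5 CPM in donors and from 8.02 to 49.6 CPM in acceptors for astrocytes, from 65.1 to 176 and from 75.9 to 275 CPM for the oligodendrocyte lineage, and from 0.282 to 9.17 and from 0.684 to 21.5 CPM for neurons. Of the markers, Pecam1 was higher in donors at 15 and 30 min in both fits (adjusted p = 0.0351 and 0.0107 without the block). With the block Gja1 was also lower in donors at 15 min, and the microglia markers Aif1 (0 min) and Tmem119 (30 min) were higher. The part of these markers in the difference was not tested.

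Mcm6 was lower in donors at the 5 times from 15 to 300 min. At 150 min it measured 59.5, 46.6, 54.6 and 43.1 CPM in donors and 92.8, 70.9, 86.04 and 57.02 CPM in acceptors in experiments 1 to 4, at -0.58 (SE 0.09, adjusted p = 9.6e-05). The 4 donor units lay below their own acceptors in each experiment. Mcm7 was lower at 15 to 150 min, with 35.2, 17.7, 19.5 and 22.02 CPM in donors and 48.7, 31.7, 28.9 and 38.95 CPM in acceptors at 30 min, at -0.67 (SE 0.15, adjusted p = 0.00371). Mcm3 was lower at 15, 30 and 150 min, at -0.58 (SE 0.13, adjusted p = 0.00298) at 30 min, and Mcm4 at 60 and 150 min, with 15.6, 8.36, 10.2 and 10.2 CPM in donors and 20.3, 15.6, 22.8 and 18.8 CPM in acceptors at 150 min, at -0.84 (SE 0.19, adjusted p = 0.00618). At 150 min the 6 members called were Mcm3, Mcm4, Mcm5, Mcm6, Mcm7 and Cdc6.

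Outside licensing, Rpa2 was lower in donors at 0, 15 and 30 min, with 26.8, 18.8, 21.96 and 18.8 CPM in donors and 44.1, 33.1, 38.8 and 23.5 CPM in acceptors at 30 min, at -0.69 (SE 0.14, adjusted p = 0.00142). Pola1 was lower at 0 and 30 min and Pold1 at 0 min, where Pold1 measured 9.63, 7.89 and 7.40 CPM in donors and 17.2, 13.1 and 14.7 CPM in acceptors in experiments 1 to 3, at -0.86 (SE 0.22, adjusted p = 0.015). Pola1 at 0 min measured 6.65, 3.36 and 2.88 CPM in donors and 10.99, 6.85 and 6.82 CPM in acceptors, at -0.97 (SE 0.28, adjusted p = 0.0356). Each donor unit was below its acceptor unit for these 2 polymerase genes at 0 min. Hells was lower at 15 min, with 3.15, 1.90, 2.95 and 3.89 CPM in donors and 5.92, 7.87, 6.25 and 6.29 CPM in acceptors, at -1.21 (SE 0.29, adjusted p = 0.00481). Rrm2 was lower at 30 and 60 min, and at 60 min measured 4.92, 2.73 and 0.705 CPM in donors of experiments 1, 3 and 4 and 12.9, 6.49, 9.90 and 13.8 CPM in acceptors of experiments 1 to 4, at -2.40 (SE 0.68, adjusted p = 0.0266). Cdc45 passed at 60 min, at -1.70 (SE 0.44, adjusted p = 0.0155). Gins1 and Dut passed at 15 min only, and Uhrf1, Lig1 and Tyms at 30 min only. In all 17 members passed at 1 or more times. With 1 experiment left out, the blocked calls at the 6 times numbered 0, 4, 9, 0, 2 and 1 without experiment 1, 1, 1, 5, 1, 3 and 0 without experiment 2, 0, 1, 7, 0, 1 and 1 without experiment 3 and 7, 2, 5, 2, 3 and 0 without experiment 4. Mcm6 was among those called at 30 and 150 min, and Hells at 15 min, whichever experiment was left out. Here too the shares of all genes called with an experiment left out are not given, and the counts may follow the whole fit.

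**Figure D4:**
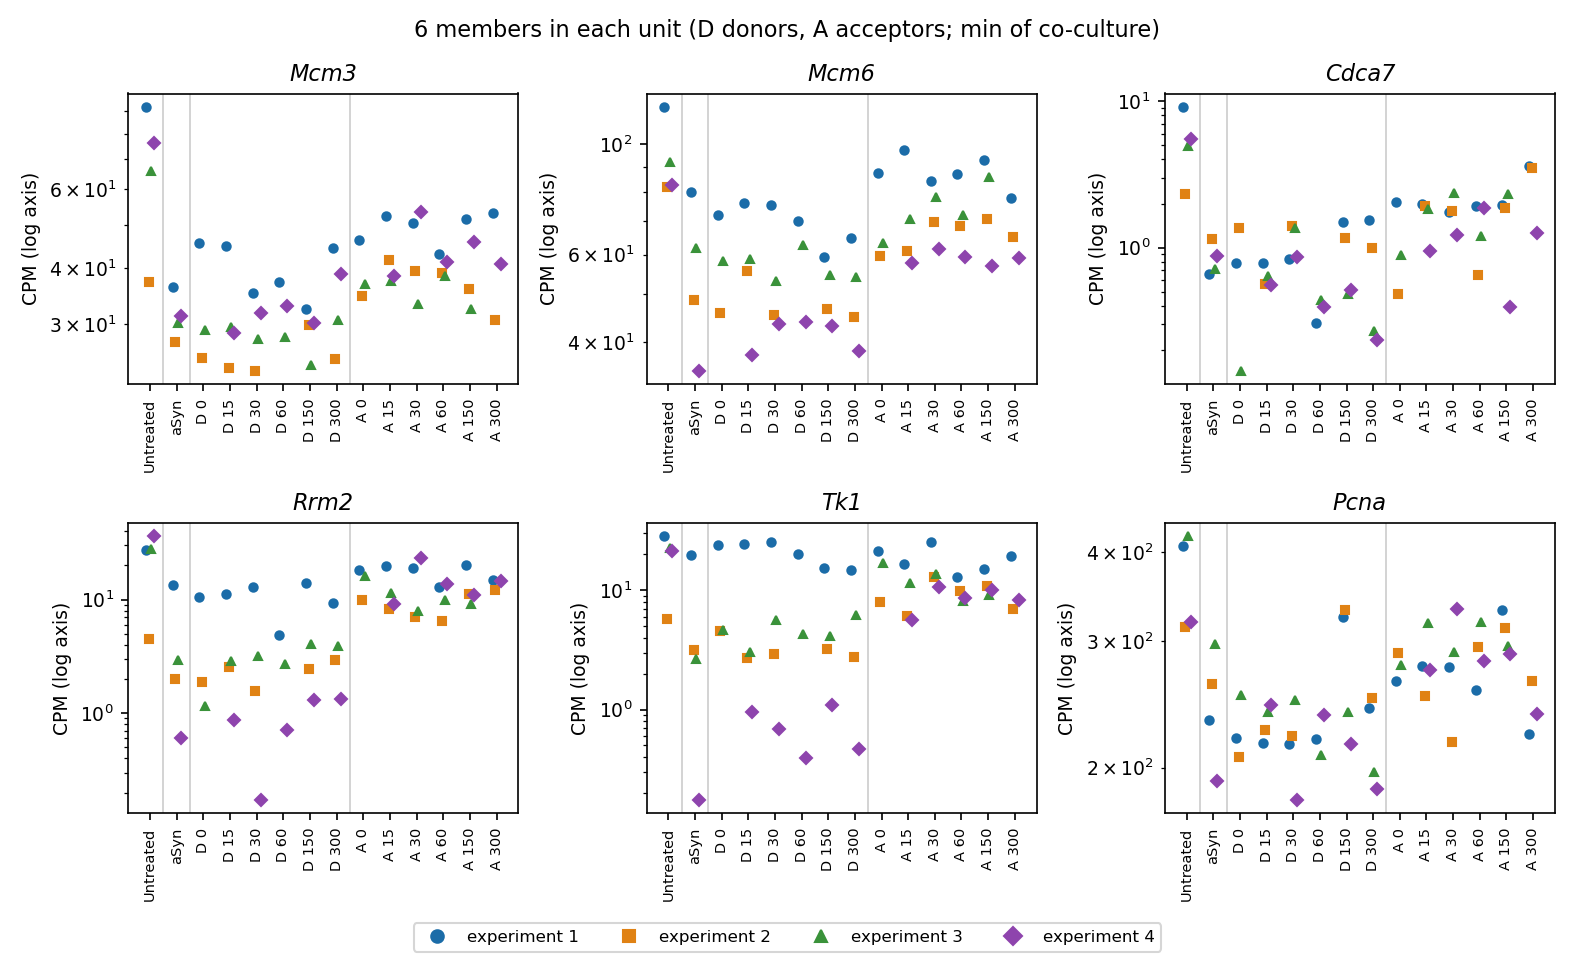
CPM on a log axis (y) of Mcm3, Mcm6, Cdca7, Rrm2, Tk1 and Pcna in each of the 52 units, by group (x axis, D donors, A acceptors, number gives min of co-culture), coloured by experiment. Rrm2 and Tk1 in aSyn and donor units spread by experiment, with experiment 1 highest and experiment 4, where present, lowest, while acceptor units lie closer together.

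Side by side, the group means of centred log2 CPM over the 39 members were 0.73 (SD 0.54, n = 4) in untreated cells, -0.28 (SD 0.47, n = 4) in aSyn cells, -0.37 to -0.20 in the 6 donor groups and 0.14 to 0.29 in the 6 acceptor groups. Neighbours in this order overlapped in their units: acceptor units reached 0.67, above the untreated unit of experiment 2 at -0.04, and donor units of experiment 1 reached 0.40, above most acceptor units of the other experiments. The mean over the 14 units of experiment 1 was 0.46, against -0.17, -0.10 and -0.24 in experiments 2, 3 and 4.

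**Figure D5:**
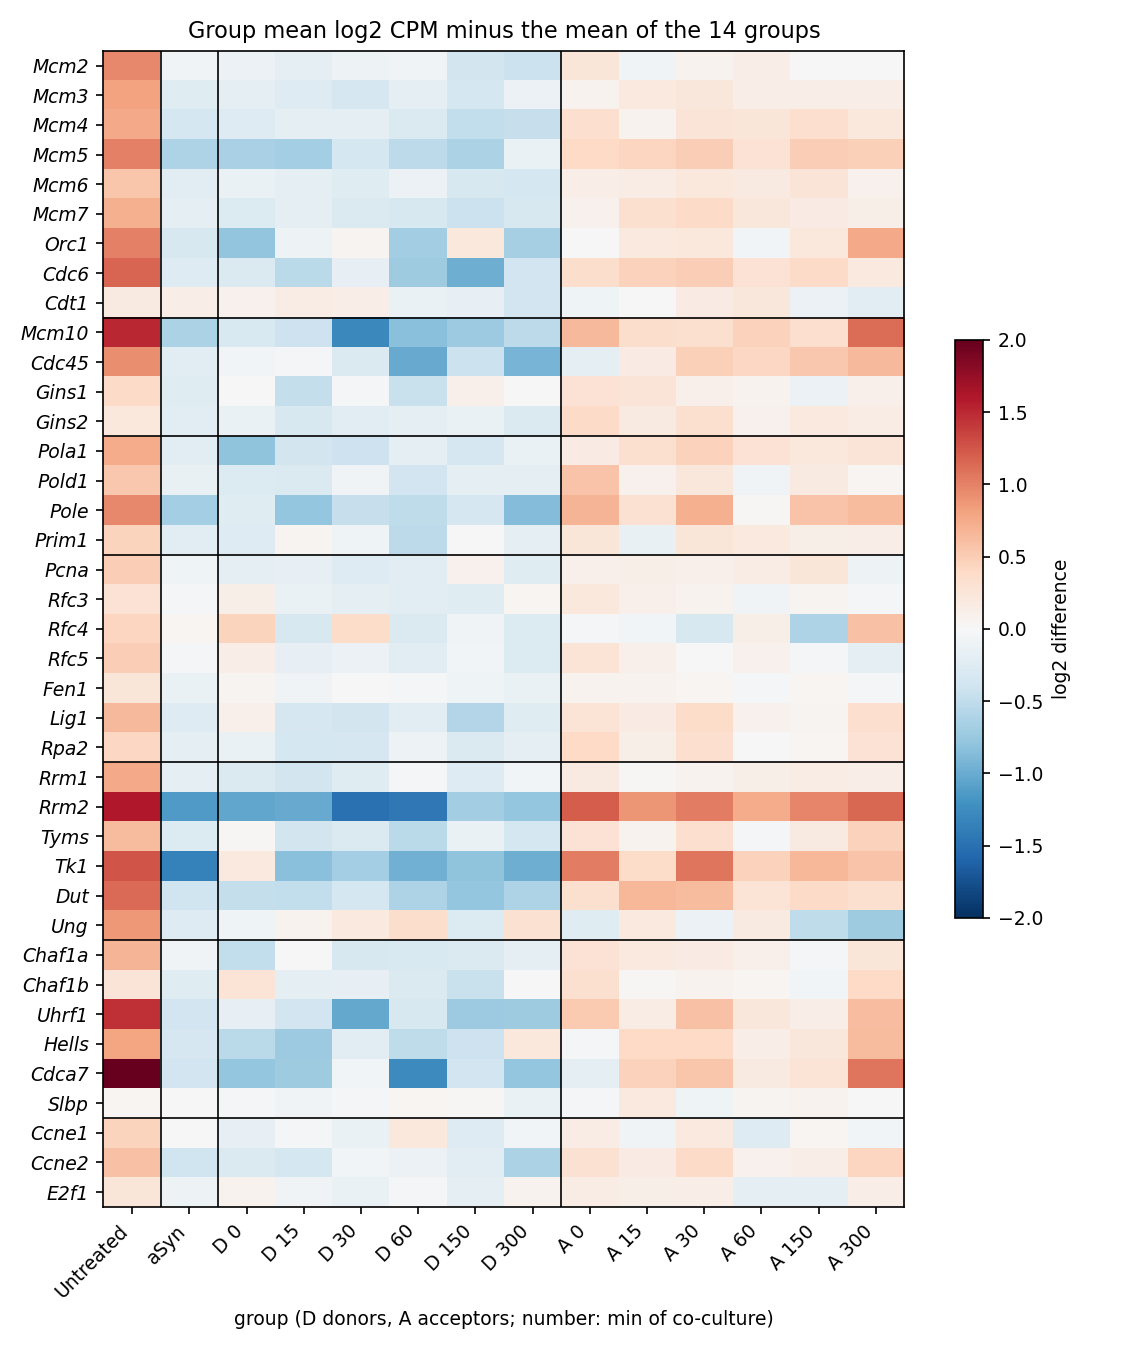
Mean log2 CPM of each member (rows, by role) in each of the 14 groups (columns), minus the mean of that member over the groups. Untreated cells are the highest group for most members, acceptors are mostly above and donors mostly below 0, and Slbp and Fen1 show little contrast. Groups that lack an experiment average over the other 3.

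How much of a member's variance lay between groups varied widely. Group accounted for a median of 34.5% of the variance of log2 CPM over the members and experiment for 31.4%, against 25.0% and 33.9% over all genes, without a test of the difference. The shares come from separate fits and are not adjusted for the number of levels, 14 groups and 4 experiments. More levels take up more variance even where no true difference exists, so a group share cannot be set against an experiment share. Cdca7 and Pcna were at the top, with 64.6% and 63.7% between groups and 7.79% and 4.11% between experiments. Fen1 and Rfc5 were at the bottom, with 12.6% and 18.5% between groups and 57.3% and 53.4% between experiments. The 6 ring subunits had 41.2% (Mcm5) to 56.2% (Mcm3) between groups, and Mcm7 had 42.1% between groups and 43.7% between experiments. Cdt1, which differed little with aSyn, had 52.1% between groups. Tk1 had 31.8% between groups and 45.4% between experiments.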

How the data were processed

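Poly(A)-tail-primed 3′ libraries (QuantSeq 3′ mRNA-Seq FWD, single reads of 50 bases on an Illumina instrument, per the labels' protocols) of mouse primary microglia were deposited by the authors as a table of read counts per gene, with a second table of normalized signal. The submitters' processing notes name STAR, Partek, DESeq2 and the build mm10. Their versions, the annotation, the counting settings and the use of strand are not given in the sources used here. The deposited normalized signal equalled count divided by a library size factor (0.634 to 1.34) within 0.1 for 100% of values, with the factors taken over 10900 genes counted in every library, and was not used further. No other value column lacked a sample (0).

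Counts of 54 libraries in 14 groups were analysed with R 4.3.3. Same-numbered untreated libraries were summed because their titles carry the same experiment number, which left 52 units. The labels do not say whether they are technical repeats. Their counts differed less (chi-square per degree of freedom 10.3 and 12.1) than those of other untreated pairs (24.2 to 288), which does not settle that. Genes were filtered with filterByExpr (minimum count 10), scaled by TMM, fitted over all 14 groups with edgeR 4.0.16 (glmQLFit, glmQLFTest) and adjusted by Benjamini-Hochberg over 13169 genes, with a threshold of 0.05. CPM use the TMM-scaled library size, and log2 CPM uses a prior count of 2. The pairing comes from the replicate numbers in the titles: the mean correlation of same-numbered units ran from 0.339 to 0.593 over 19 comparisons, and no pair was under 0.199. Blocked fits add the replicate number. The alternatives were DESeq2 1.42.0 with its size factors, no filter, untreated libraries kept separate, only the groups compared, and each replicate left out. The aSyn against untreated test without the block was tried on simulated counts that held no experiment effect. Blocked fits, the tests over time and DESeq2 were not tried on simulated counts.

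The genes described unit by unit are, for each role, those called without the block and at least the 2 with the lowest blocked p for aSyn, and up to 3 of lowest p called in each other comparison. Members and gene lists were chosen with earlier results of these data known, and 1 gene of the microglia marker list is not reported here. Promoter windows come from RefSeq (GRCm38.p6), with the first listed start where a gene has several, and gene positions from GENCODE vM21 (mm10). Counting limits cover counting error only.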

Additional observations from a re-analysis of the deposited data

Results flagged for a closer look

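Among 88 groups of 4 units, 7 held 1 unit that stood apart from the other 3 (chance gives about 1 in 20). In the untreated group Dut measured 5.67 CPM in experiment 2 against 17.1 to 19.4 CPM in the others. In the aSyn group 4 genes stood apart in experiment 1, each on the high side: Lig1 at 65.1 CPM (others 25.2 to 28.1), Tk1 at 19.5 CPM (others 0.175 to 3.13), Chaf1a at 10.8 CPM (others 5.26 to 6.02) and Uhrf1 at 13.6 CPM (others 2.53 to 3.77). E2f1 stood apart in experiment 4 of the aSyn group, at 31.0 CPM against 20.8 to 21.8 CPM. The mean centred log2 CPM of the 39 genes was 0.56 in the acceptors of experiment 1 at 150 min, against -0.01 to 0.06 in the other experiments.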

How the results depend on the processing

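For aSyn against untreated, 7 members were called. The count was 28 with the replicate block, 10 with DESeq2, 5 without the low-count filter, 8 with the untreated libraries kept separate and 0 when only these groups were fitted. With 1 replicate left out it was 0 to 9, and with the block it was 23, 27, 23 and 21 without replicates 1 to 4. A fit of experiments 1 and 2 alone gave 0 (block 8). That fit and the blocked fits with a replicate left out were added after seeing the data. With the replicate block, 4, 7, 5, 8, 7 and 5 members were called at the 6 times for acceptors against untreated and 3, 8, 10, 5, 6 and 1 for donors against acceptors, where the fit without it called 0. DESeq2 called 1 member for acceptors at 15, 60 and 150 min each. With 1 replicate left out, with or without the block, counts ran from 0 to 4, 0 to 8, 0 to 6, 0 to 12, 0 to 7 and 0 to 3 for acceptors against untreated, from 0 to 7, 0 to 4, 0 to 9, 0 to 2, 0 to 3 and 0 to 1 for donors against acceptors, and from 0 to 1 for donors against aSyn at 300 min. The cause of these shifts was not tested. Shares of all genes called are not given for the alternatives other than the replicate block.

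The log2 fold change with aSyn turned positive for 3 members, none of them called: Slbp at 0.11 without replicate 1 (block 0.11; down to -0.123 without replicate 4 and -0.204 with experiments 1 and 2 alone), Cdt1 at 0.001 without replicate 3, 0.0034 without replicate 4 (block 7.26e-05; -0.0726 without replicate 1) and 0.0737 with experiments 1 and 2 alone (block 0.0722), and Rfc4 at 0.23 with experiments 1 and 2 alone (block 0.25). The other 36 kept their direction under all alternatives run. Fewer than 3 counts were found in 6 units for Orc1 and in 1 unit each for Mcm10, Rrm2, Tk1 and Cdca7, where depth limits the value.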
